A study of Rattus norvegicus with 9 samples.

Results

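Genes of mitosis and the spindle were followed in rat lung fibroblasts on postnatal days 2, 7 and 21. A gene belonged to the set if it was on a list of 50 genes of G2/M and the spindle and at least 1 probe set of the array carried its symbol and no other. Of the 50 listed genes, 42 were measured, by 58 probe sets, among 14217 genes with a symbol of their own on the array. Where a gene had several probe sets, the brightest over all arrays represented it. The other 8 (Cdc25c, Nek2, Ndc80, Kif4a, Tpx2, Ckap2, Ncapg and Anln) had no such probe set, and for Anln and Ckap2 the array held only probe sets shared with another symbol.

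The fibroblasts were freshly isolated before septation (day 2, the saccular stage), during it (day 7) and after it had ended (day 21). Septation is the outgrowth of ridges that divide the air spaces of the newborn lung into alveoli. Each of the 9 arrays held RNA from pooled cells of 1 litter, from 5 pups on day 2 and 4 pups on days 7 and 21, with 3 litters per day. The labels name no strain, sex, genotype or treatment, and the cells of all days were dispersed with trypsin and collagenase and kept if they adhered to plastic within 45 min, so other adherent lung cells can be among them.

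A cell enters mitosis when cyclin B and its kinase CDK1 become active, and it leaves mitosis when the anaphase-promoting complex marks cyclin B and securin for destruction. Between these events the chromosomes condense, kinetochores attach them to spindle microtubules, a checkpoint holds anaphase back until all are attached, and motor proteins of the kinesin family build the spindle and the site of cleavage. The mRNAs of most of these proteins are made late in the cell cycle and are scarce in resting cells, and they are widely used as markers of dividing cells. In the lung after birth, fibroblasts multiply while the alveolar walls grow and multiply little in the mature lung.

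Many promoters of late cell cycle genes carry CCAAT boxes, which the factor NF-Y binds, and a cell cycle genes homology region (CHR), which the DREAM complex in resting cells and MuvB complexes with MYBL2 and FOXM1 in dividing cells bind. RefSeq promoters (build GRCr8, 250 bases before to 50 after the annotated start) were matched by symbol for 44 of the 50 listed genes, with 45 promoters because Kif2c has a pair of starts. The letters CCAAT were found on either strand in 34 of the 45 (75.6%), against 37.5% of all 33469 promoters of the table, and 53.3% of the 45 held them at least 2 times, against 11.2%. The CHR letters TTTGAA were found on either strand in 33 (73.3%), against 18.3% of all. Both occurred together in 60.0% of the listed genes' promoters and in 7.4% of all, or 6.9% of the promoters of protein-coding genes outside the list. The other CHR form TTCGAA was in 6.7% against 1.7%, the E2F-type letters GCGGGAA in 6.7% against 4.2%, and TATAAA in 2.2% against 14.2%. No motif contains another, and a match is a description of these letters, not a site shown to be bound.

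The stretches upstream of the start of 5 measured genes are shown, because they held both motifs upstream of the start and had the largest falls from day 7 to day 21 among the 19 promoters that did. Capitals mark CCAAT and TTTGAA, or their reverse complements ATTGG and TTCAAA, and each stretch ends at the base before the annotated start. They are Cdk1 (chr20:19265143-19265292, plus strand), Top2a (chr10:84473094-84473243, minus strand), Ccnb2 (chr8:79981659-79981808, minus strand), Smc2 (chr5:71602155-71602404, plus strand) and Kif23 (chr8:71320585-71320734, minus strand), each 5′ to 3′ on the gene's strand.
Cdk1: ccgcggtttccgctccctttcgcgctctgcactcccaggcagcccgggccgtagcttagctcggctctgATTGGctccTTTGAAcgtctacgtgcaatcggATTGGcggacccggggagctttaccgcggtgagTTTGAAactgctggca
Top2a: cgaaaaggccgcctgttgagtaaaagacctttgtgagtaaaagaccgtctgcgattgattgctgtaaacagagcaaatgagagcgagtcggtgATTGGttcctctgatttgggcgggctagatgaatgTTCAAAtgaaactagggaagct
Ccnb2: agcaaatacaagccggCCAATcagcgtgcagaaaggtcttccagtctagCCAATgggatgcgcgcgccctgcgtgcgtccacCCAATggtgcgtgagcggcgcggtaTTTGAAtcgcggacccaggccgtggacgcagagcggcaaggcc
Smc2: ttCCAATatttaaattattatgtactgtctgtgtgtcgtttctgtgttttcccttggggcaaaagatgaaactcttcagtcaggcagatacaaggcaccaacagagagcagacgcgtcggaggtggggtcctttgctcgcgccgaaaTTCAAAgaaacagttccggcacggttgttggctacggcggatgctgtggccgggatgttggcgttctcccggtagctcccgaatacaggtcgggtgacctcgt
Kif23: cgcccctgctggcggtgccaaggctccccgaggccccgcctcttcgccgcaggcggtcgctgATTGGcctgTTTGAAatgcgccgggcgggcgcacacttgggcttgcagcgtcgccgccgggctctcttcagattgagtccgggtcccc
Cdk1 held both motifs 2 times in this stretch, and Ccnb2 held 3 CCAAT boxes upstream of a single TTTGAA. In Kif23 the CCAAT box and the CHR lay within a few bases of each other, whereas in Smc2 the CCAAT box was at the far end of the window.

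The letters clustered near the start. CCAAT boxes of the listed genes were most frequent between 100 and 76 bases before the start (35.6% of promoters, against 5.73% of all), and TTTGAA in the last 25 bases before it (24.4% against 1.35%). Whether holding both went with the size of the change was not tested. The 23 measured genes with both in the window had a median log2 change of -1.58 from day 7 to day 21 (range -3.76 to 0.62). The 14 with 1 or neither had a median of -2.24 (range -3.23 to 0.09). The measured genes Ccna2, Pbk, Aurkb, Ube2c and Racgap1, which were all called lower, had no matched promoter and are in neither group. Bub1, Kif2c and Melk held neither motif, nor did Aurka, which did not fall. Cks2 and Cenpa, which did not fall either, held both.

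**Figure D1:**
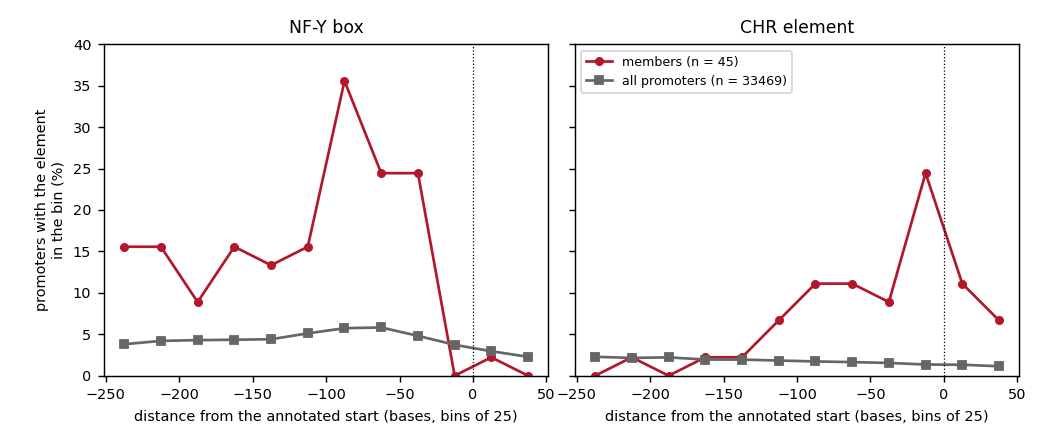
Share of promoters (%) with a CCAAT box (left, NF-Y box) or TTTGAA (right, CHR element) on either strand in bins of 25 bases around the annotated start, for the 45 promoters of listed genes (red circles) and all 33469 promoters (grey squares). The red line peaks at 35.6% between 100 and 76 bases before the start on the left and at 24.4% just before the start on the right, while the grey line does not exceed 5.82% on the left and 2.28% on the right.

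The array values are intensities, given here as log2 intensity, and changes are differences of log2 intensity with the SE from limma (n = 3 arrays per day). The median probe set lay at log2 5.24 to 5.66 per array, and 25% of all values lay below log2 4.25, called the low end here, where folds are open to background. Gapdh and beta-actin controls gave 3′ to 5′ log2 differences of -0.11 to 0.25 and 0.49 to 1.18 over the 9 arrays. For beta-actin the range was 0.51 to 0.80 on day 2, 0.71 to 1.18 on day 7 and 0.49 to 0.73 on day 21, and the part of RNA quality in the results was not tested. The litters of a day are separate, so a p-value measures the spread between litters. In pooled cells, fewer dividing cells and less mRNA per dividing cell cannot be told apart.

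The main change was a loss of mitotic mRNAs between days 7 and 21. Of the 42 measured genes, 38 fell, 1 rose (Cks2) and 3 did not pass (Aurka, Cenpa and Cdc20), at a limma adjusted p under 0.05. Over all 14217 genes, 24.4% were called lower and 13.7% higher in this comparison. With each array centred on its median, the share of higher calls among all called probe sets went from 36.6% to 48.0%, and the 42 genes still gave 38 lower and 1 higher. The median log2 change of the 42 genes was -1.97, or 3.91-fold lower, against -0.01 over all genes. Falls of at least 2-fold were called for 34 of the 42, against 11.8% of all genes, falls of at least 4-fold for 21, against 2.15%, and of at least 8-fold for 6, against 0.506%. The separation of the days was nearly complete. For 39 of the 42 the day 21 arrays all lay below the day 7 arrays, against 30.7% of all genes. At day 21 the means of Melk, Pbk, Ttk, Kif11, Kif2c and Hmmr lay below the low end, so their folds are open to background, and 23 of the 42 genes were below the array median on every day 21 array. On day 7, 39 of the 42 had been above it on every array.

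Between days 2 and 7 the same genes were mostly a little higher on day 7. Of the 42, 5 rose (Top2a, Aurkb, Pbk, Kif20a and Nusap1), 37 did not pass and 0 fell by limma, with 20 higher and 0 lower at an unadjusted p under 0.05, which 17.2% of all genes reached upward and 9.52% downward. Over all genes 7.02% were called higher and 4.41% lower. With each array centred on its median, the share of higher calls among all called probe sets went from 61.5% to 41.5%, and 3 of the 42 were called, all higher. The median log2 change was 0.36, or 1.28-fold, against 0.07 over all genes. Values were above 0 for 39 of the 42, and for 8515 of all 14217 genes. For 23 of the 42 the day 7 arrays all lay above the day 2 arrays, against 21.1% of all genes. Only Top2a and Aurkb held their call whichever of the 6 arrays was left out, and the count fell to between 2 and 4 genes.

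Across the whole period, day 21 against day 2, 37 of the 42 fell, 0 rose and 5 did not pass (Cks2, Aurka, Plk1, Cenpa and Cdc20). Over all genes 15.3% were called lower and 8.80% higher. A further quantile normalization moved the share of higher calls among all called probe sets from 36.0% to 47.3%, and 36 of the 42 were then lower and 1 higher. With limma, 1 of the 42 was higher at an unadjusted p under 0.05, Cks2, against 16.6% of all genes. The median log2 change was -1.69. Falls of at least 2-fold were called for 28 of the 42, against 5.57% of all genes, and for 38 the day 21 arrays all lay below the day 2 arrays, against 24.5%. The day 7 arrays enter both intervals, and the day 2 and day 21 arrays each enter a pair of comparisons, so these are not independent counts. All 37 had also been called lower against day 7, where Plk1 was called too (adjusted p = 0.0511 against day 2).

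**Figure D2:**
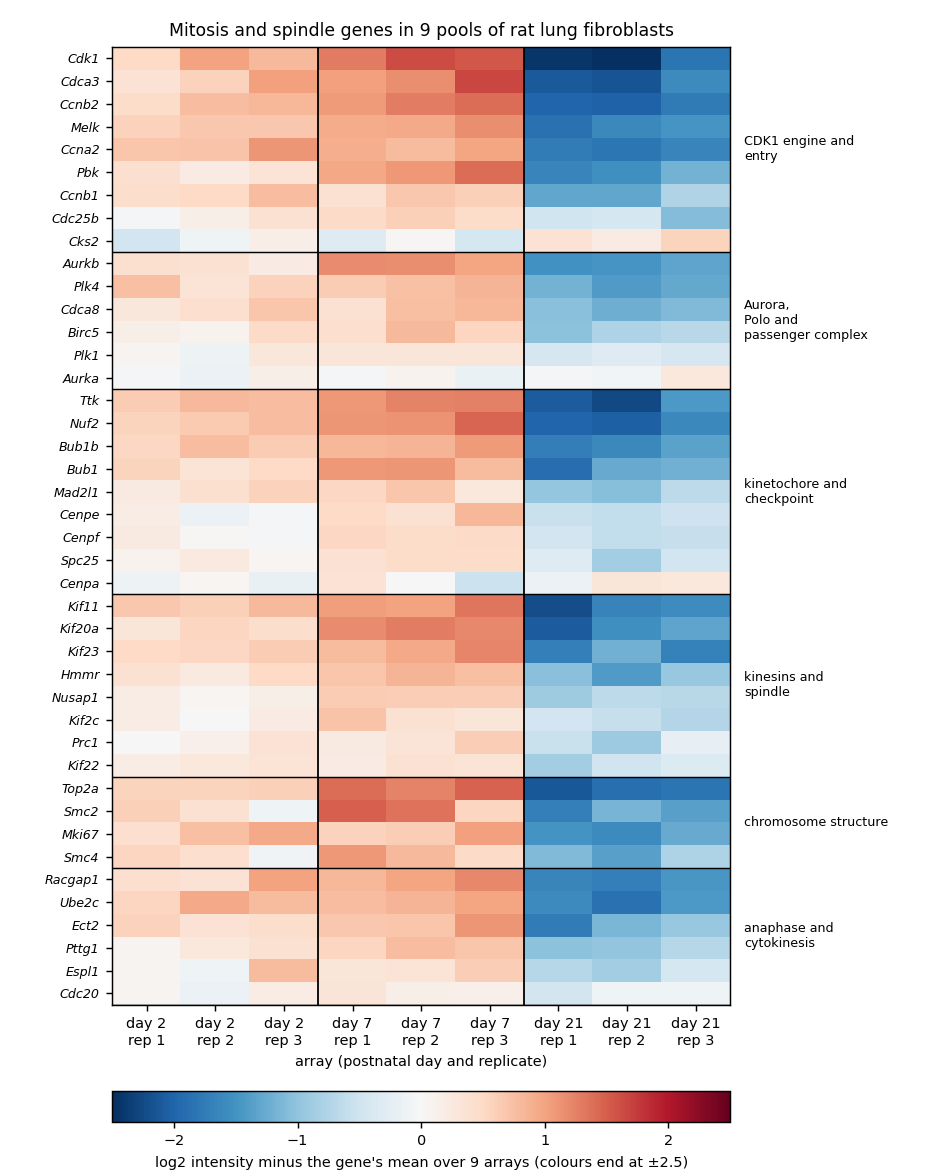
Log2 intensity of the 42 measured genes (rows, grouped by role) on the 9 arrays (columns), each minus the gene's mean over the arrays (red above, blue below). The 3 day 21 columns are blue for 39 genes, and Cks2, Aurka and Cenpa stand out as rows without that pattern.

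The CDK1 engine and its entry regulators held the largest fall of all. Cdk1, the kinase that drives entry into mitosis, was at log2 7.92, 8.42 and 8.23 on day 2 and at 8.73, 9.04 and 8.97 on day 7. By day 21 it was at 4.98, 4.90 and 5.59. The arrays of the 3 days did not overlap, with day 7 highest and day 21 far below the rest. Its fall from day 7 was 13.5-fold (log2 change -3.76 ± 0.21, limma adjusted p = 3.35e-07), and its value for day 7 against day 2 was 0.72 ± 0.21 (adjusted p = 0.0512).

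The B-type cyclins that activate it differed in size of fall. Ccnb2 was at log2 8.55, 8.85 and 8.92 on day 2, at 9.14, 9.36 and 9.48 on day 7 and at 6.10, 6.06 and 6.33 on day 21. It fell 8.98-fold from day 7 (log2 change -3.17 ± 0.16, adjusted p = 2.31e-07). Ccnb1 was at 7.00, 7.05 and 7.32, then 6.93, 7.23 and 7.14, then 5.25, 5.25 and 5.80. Its days 2 and 7 overlapped (log2 change -0.02 ± 0.18, adjusted p = 0.966), and it fell 3.17-fold from day 7 (adjusted p = 3.56e-05). Whether the falls of the 2 cyclins differ was not tested. Ccna2, the cyclin of S phase and G2, likewise overlapped between days 2 and 7 and fell 6.21-fold (log2 change -2.63 ± 0.16).

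Cdca3, a protein that helps destroy the mitosis inhibitor WEE1, was at log2 7.14, 7.36 and 7.81 on day 2 and at 7.81, 7.94 and 8.45 on day 7. It was at 4.68, 4.62 and 5.20 on day 21, 9.40-fold below day 7 (log2 change -3.23 ± 0.23, adjusted p = 1.8e-06). The kinase Pbk was among the genes raised on day 7, at 6.10, 6.22 and 6.53 against 5.54, 5.34 and 5.48 on day 2 (log2 change 0.83 ± 0.17, adjusted p = 0.0123). Leaving out replicate 2 of day 2 ended that call (adjusted p = 0.0547), as did centring each array on its median (adjusted p = 0.0524). Pbk was at 3.49, 3.60 and 3.95 on day 21, 6.06-fold below day 7. The kinase Melk fell 6.29-fold and the phosphatase Cdc25b, which activates CDK1, fell 2.28-fold.

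Cks2, a small subunit that binds CDK1, went the other way. It was at log2 9.11, 9.48 and 9.77 on day 2, at 9.28, 9.63 and 9.16 on day 7 and at 9.96, 9.80 and 10.15 on day 21. All day 21 arrays lay above those of days 2 and 7, by 1.53-fold over day 7 (log2 change 0.62 ± 0.20, adjusted p = 0.0334). This rise rested on few arrays. Leaving out replicate 1 or 3 of day 7 gave an adjusted p of 0.0915 or 0.109, and leaving out replicate 1 or 3 of day 21 gave 0.0737 or 0.113.

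Among the Aurora and Polo kinases and the chromosomal passenger complex, Aurkb was called in both intervals and Aurka in neither. Whether the changes of these 2 Aurora kinases differ was not tested. Aurkb, the kinase of the passenger complex that corrects kinetochore attachments, was at log2 7.08, 7.06 and 6.89 on day 2 and at 7.86, 7.84 and 7.68 on day 7. It was at 5.16, 5.21 and 5.37 on day 21. It rose 1.72-fold to day 7 (log2 change 0.78 ± 0.14, adjusted p = 0.00664) and then fell 5.83-fold (log2 change -2.54 ± 0.14, adjusted p = 3.61e-07), with no overlap between days. Its partners Birc5 (survivin) and Cdca8 (borealin) fell 2.68-fold and 3.42-fold from day 7.

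Aurka, the Aurora kinase of centrosomes and spindle poles, had 1 probe set, at log2 5.97, 5.86 and 6.15 on day 2, 5.95, 6.09 and 5.84 on day 7 and 5.95, 5.94 and 6.26 on day 21. The days overlapped throughout, and its log2 change from day 7 to day 21 was 0.09 ± 0.16 (adjusted p = 0.725). Plk4, which starts centriole duplication, was at 6.54, 6.13 and 6.36 on day 2, 6.43, 6.53 and 6.64 on day 7 and 4.61, 4.38 and 4.51 on day 21, and it fell 4.08-fold (log2 change -2.03 ± 0.16, adjusted p = 2.72e-06). Plk1, the kinase of mitotic entry and exit, fell 1.61-fold (log2 change -0.69 ± 0.15, adjusted p = 0.00352), from 6.26, 6.27 and 6.26 to 5.54, 5.64 and 5.54.

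**Figure D3:**
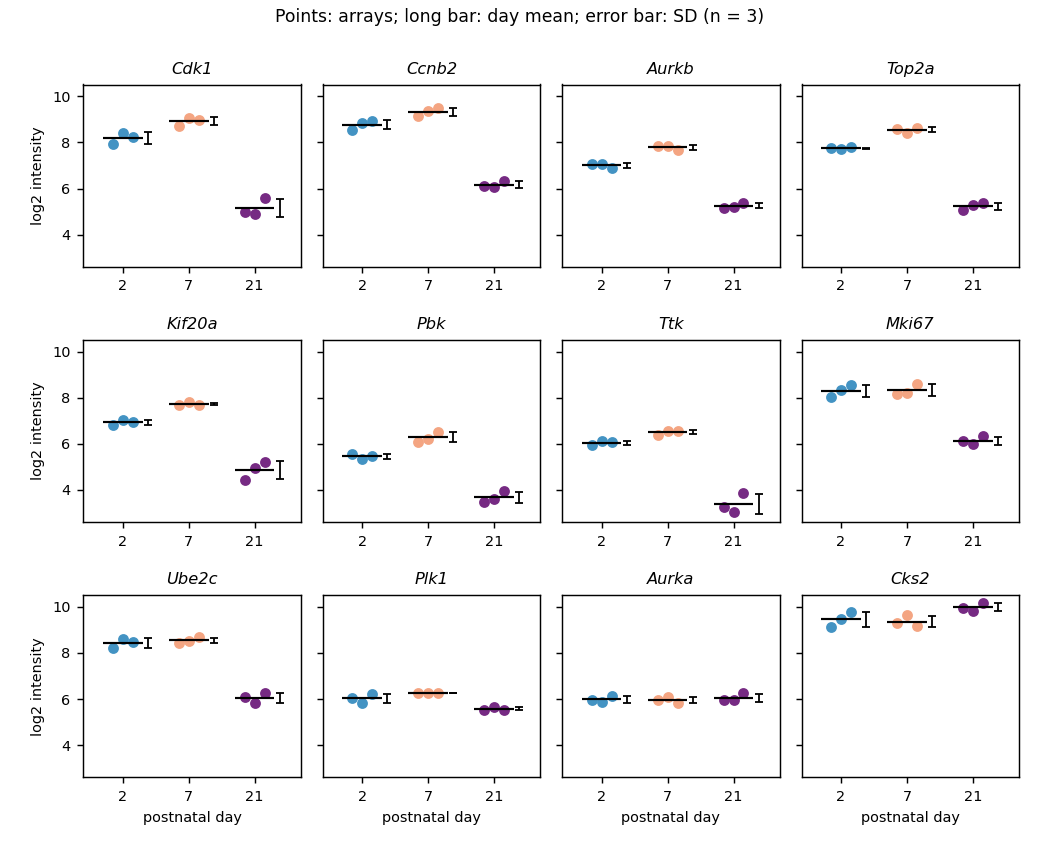
Log2 intensity of 12 genes on each array by postnatal day (points), with the day mean (long bar) and SD (error bar, n = 3). Day 21 lies below days 2 and 7 for Cdk1, Ccnb2, Aurkb, Top2a, Kif20a, Pbk, Ttk, Mki67, Ube2c and, by a smaller step, Plk1, while Aurka lies between log2 5.84 and 6.26 on all arrays and Cks2 is highest on day 21.

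At the kinetochore and its checkpoint, 8 of 9 measured genes fell from day 7 to day 21, where 24.4% of all genes were called lower. Ttk, the kinase at the head of the checkpoint, was at log2 5.95, 6.12 and 6.09 on day 2, at 6.39, 6.56 and 6.57 on day 7 and at 3.24, 3.06 and 3.88 on day 21. It fell 8.65-fold (log2 change -3.11 ± 0.20, adjusted p = 8.54e-07) to the low end, so the fold is open to background. A dimmer second probe set of Ttk, near the low end on all days, gave -0.36 ± 0.23 (adjusted p = 0.292).

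Nuf2, a subunit of the NDC80 complex that holds microtubules, was at log2 7.33, 7.43 and 7.54 on day 2, at 7.87, 7.89 and 8.22 on day 7 and at 4.80, 4.72 and 5.17 on day 21. Its fall was 8.55-fold (log2 change -3.10 ± 0.17, adjusted p = 3.24e-07). Spc25, another subunit of that complex, fell 1.98-fold. The checkpoint proteins Bub1 and Bub1b fell 5.49-fold and 5.57-fold, and Mad2l1 fell 2.63-fold, with all 3 of its probe sets called lower.

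The kinetochore motor Cenpe and the matrix-associated Cenpf fell 2.19-fold and 2.06-fold. Against day 2 Cenpe was lower by log2 -0.56 (adjusted p = 0.0314), a call that was lost in 5 of the 6 fits with an array left out and with arrays centred on their medians (adjusted p = 0.0805). Cenpa, the histone H3 variant that marks centromeres, had 1 probe set near the low end, at 3.99, 4.15 and 3.93 on day 2, 4.47, 4.12 and 3.58 on day 7 and 3.97, 4.42 and 4.37 on day 21. The days overlapped (log2 change 0.20 ± 0.22 from day 7 to day 21, adjusted p = 0.558).

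All 8 measured kinesins and spindle proteins fell from day 7 to day 21 (24.4% of all genes were called lower). Kif11, the motor that pushes spindle poles apart, was at log2 6.45, 6.38 and 6.59 on day 2, at 6.82, 6.78 and 7.11 on day 7 and at 3.56, 4.12 and 4.20 on day 21. It fell 7.70-fold (log2 change -2.94 ± 0.19, adjusted p = 7.81e-07), ending below the low end, and its second probe set was called lower too (-1.85).

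Kif20a, a motor of the central spindle, was at 6.81, 7.04 and 6.95 on day 2, at 7.70, 7.79 and 7.70 on day 7 and at 4.43, 4.97 and 5.19 on day 21. It rose 1.74-fold to day 7 (log2 change 0.80 ± 0.19, adjusted p = 0.0225), a call lost without any 1 of the 6 arrays (adjusted p from 0.0508 to 0.0769) and after centring on the median (0.0612). It then fell 7.30-fold (adjusted p = 1.02e-06).

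Nusap1, which binds spindle microtubules, was at 6.93, 6.78 and 6.88 on day 2, at 7.37, 7.35 and 7.36 on day 7 and at 5.84, 6.07 and 6.05 on day 21. Its rise of 1.41-fold (adjusted p = 0.0458) was lost without any 1 of the 6 arrays (adjusted p from 0.0808 to 0.150) and after centring (0.240). It then fell 2.58-fold. The second probe set of Nusap1 was also called higher on day 7 (1.47-fold, limma adjusted p = 0.037), and it fell 4.55-fold by day 21.

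Kif22, which moves chromosome arms toward the spindle equator, had the smallest fall of the group. It was at log2 6.44, 6.52 and 6.59 on day 2, 6.45, 6.64 and 6.59 on day 7 and 5.39, 5.77 and 5.91 on day 21 (1.83-fold, log2 change -0.87 ± 0.16, adjusted p = 0.00143). The falls of Kif2c, Hmmr and Prc1 were 2.10-fold, 3.75-fold and 1.92-fold. Kif23, a motor of the midzone that also serves cytokinesis, fell 5.74-fold by its brighter probe set. Its dimmer probe set gave log2 -0.08 ± 0.23 (adjusted p = 0.832), so the 2 probe sets of Kif23 disagree.

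The 4 measured genes of chromosome structure all fell from day 7 to day 21 as well (24.4% of all genes were called lower). Top2a, which untangles sister chromatids, was at log2 7.74, 7.72 and 7.78 on day 2, at 8.57, 8.43 and 8.65 on day 7 and at 5.05, 5.29 and 5.35 on day 21. The 3 days were well apart, with a rise of 1.74-fold (log2 change 0.80 ± 0.15, adjusted p = 0.00629) and then a fall of 9.96-fold (log2 change -3.32 ± 0.15, adjusted p = 8.81e-08). Both of its probe sets were called lower on day 21.

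Mki67, the proliferation marker that coats mitotic chromosomes, was at 8.02, 8.34 and 8.54 on day 2 and at 8.17, 8.21 and 8.61 on day 7, so these days overlapped (log2 change 0.03 ± 0.19, adjusted p = 0.955). It was at 6.10, 5.99 and 6.33 on day 21 and fell 4.57-fold from day 7 (log2 change -2.19 ± 0.19, adjusted p = 5.39e-06).

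The condensin core subunits Smc2 and Smc4 were uneven between litters. Smc2 was at 6.73, 6.52 and 6.03 on day 2, at 7.63, 7.49 and 6.68 on day 7 and at 4.43, 4.98 and 4.78 on day 21, with day 7 replicate 3 inside the range of day 2. Its value for day 7 against day 2 was 0.84 ± 0.26 (adjusted p = 0.0755), and it passed at 1.13 without day 7 replicate 3 (adjusted p = 0.0185). Smc2 fell 5.81-fold from day 7 to day 21 (adjusted p = 2.3e-05). Smc4 was at 7.34, 7.23 and 6.73 on day 2, at 7.89, 7.63 and 7.30 on day 7 and at 5.70, 5.45 and 6.03 on day 21, and it fell 3.68-fold. In both genes replicate 3 was the lowest array of days 2 and 7.

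Of the 6 measured genes of anaphase and cytokinesis, 5 fell from day 7 to day 21, where 24.4% of all genes were called lower. Racgap1, a regulator of the cleavage furrow, was at log2 6.55, 6.50 and 7.13 on day 2, at 6.97, 7.11 and 7.33 on day 7 and at 4.48, 4.43 and 4.68 on day 21. It fell 6.08-fold (log2 change -2.60 ± 0.19, adjusted p = 2.06e-06). Ect2, its partner in furrow formation, fell 4.32-fold.

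Ube2c, the ubiquitin-conjugating enzyme of the anaphase-promoting complex, was at 8.21, 8.62 and 8.48 on day 2, at 8.45, 8.53 and 8.68 on day 7 and at 6.09, 5.82 and 6.25 on day 21. Days 2 and 7 overlapped, and the fall to day 21 was 5.64-fold (log2 change -2.50 ± 0.17, adjusted p = 1.16e-06). Securin (Pttg1) fell 2.98-fold and separase (Espl1), the protease that securin holds back, fell 2.13-fold.

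Cdc20, the activator of the anaphase-promoting complex that the checkpoint restrains, had probe sets that fell into 2 kinds, called lower and not called. The brightest, an _s_at set, which by the array maker's naming can match several transcripts, was at log2 6.59, 6.37 and 6.70 on day 2, 6.85, 6.67 and 6.64 on day 7 and 6.06, 6.41 and 6.42 on day 21 (log2 change -0.43 ± 0.16, adjusted p = 0.0676). Another Cdc20 probe set was at 6.95, 7.03 and 7.38 on day 7 and 4.84, 5.11 and 4.97 on day 21 (-2.15 ± 0.16), and a further one gave -1.84 ± 0.18, both called lower. The last 2 of its 5 probe sets lay near or below the low end and gave -0.08 and -0.21, not called.

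**Figure D4:**
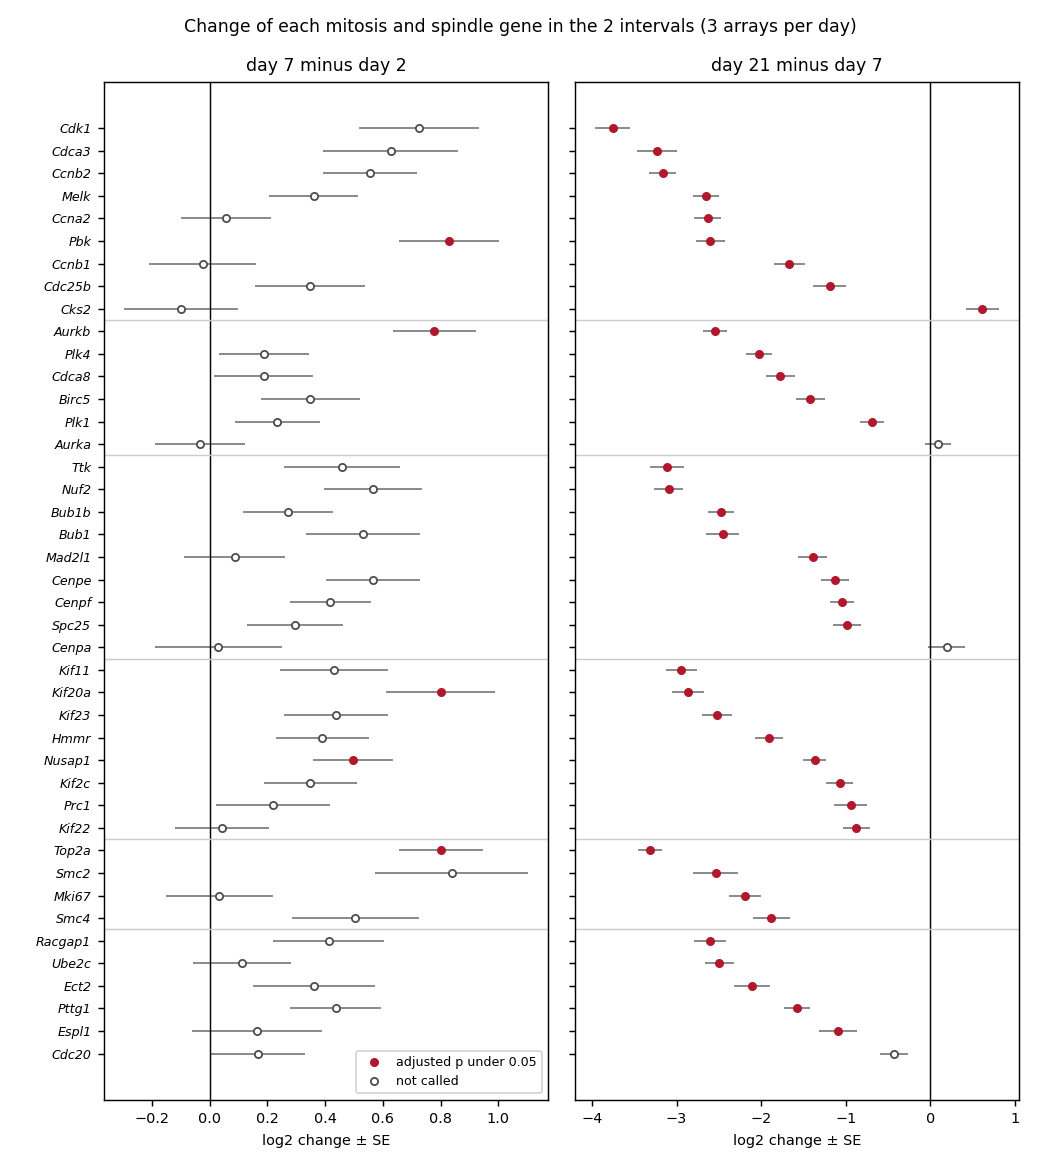
Log2 change ± SE (n = 3 arrays per day) of the 42 genes from day 2 to day 7 (left) and from day 7 to day 21 (right), by role. Filled points passed at an adjusted p under 0.05: 5 on the left, all above 0, and 39 on the right, all below 0 except Cks2.

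Agreement between probe sets could be examined for the 12 genes with several. In 9 of them all probe sets were called lower from day 7 to day 21, and no probe set of the 12 was called higher. The exceptions were Cdc20, Kif23 and Ttk. Over all 58 probe sets 50 were called lower and 1 higher, against 19.1% and 11.0% of the 31042 probe sets tested.

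The genes also shared their profile over the 9 arrays. As a description, 37 of the 42 had a Pearson r of at least 0.9 with the mean of the others, with arrays of 3 days setting most of it. The exceptions were Cenpe (0.899), Cdc20 (0.795), Aurka (-0.21), Cenpa (-0.37) and Cks2 (-0.76). Nuf2 (0.998) and Ccnb2 (0.997) were closest. Within a day the litters differed less than the days did. The mean log2 of the 42 genes was 6.66 to 6.81 on day 2, 7.03 to 7.11 on day 7 and 5.09 to 5.36 on day 21. Day 21 replicate 3 was the highest array of its day for 31 of the 42 genes, and its macrophage marker mean was also the highest of that day, at 9.97 against 9.67 and 9.52.

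Outside the list, the genes most like this profile by Pearson r over the 9 arrays, out of 13922, were Ssr1, Slc38a5, Nt5dc2, Ncaph, Dscc1, Vdac1, Spag5, Spc24, Kif18b and Gyg1 (r from 0.993 to 0.998). Ncaph, a condensin subunit, Spag5, Spc24 and Kif18b, of the spindle and kinetochore, are mitotic genes, and Dscc1 serves sister chromatid cohesion. Slc38a5, an amino acid transporter, fell by log2 -6.07 ± 0.21 from day 7 to day 21 and Gyg1, which primes glycogen synthesis, by -3.61 ± 0.17. The day 21 mean of Slc38a5 lay below the low end, so its fold is open to background. In all, 547 genes outside the list reached an r of at least 0.95, so the profile is shared widely.

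Other genes of mitosis, from a list of 100 of which 89 were measured, mostly fell from day 7 to day 21. Their median fall was smaller than that of the 42 genes. Both lists were chosen with earlier results of these data known, and no test compared them. In that interval 57 of the 89 fell, 1 rose (Ccnf) and 31 did not pass, where 24.4% of all genes were called lower. Their median log2 change was -0.92. From day 2 to day 7, 6 rose, 1 fell (Cenpn) and 82 did not pass, with a median of 0.20. This count of rises is close to the 7.02% called higher over all genes. Cdkn3, a phosphatase that acts on cyclin-dependent kinases, had the largest fall to day 21 (-3.11 ± 0.23), then Kif20b (-2.83), Kif18b (-2.53) and Depdc1 (-2.29). The day 21 means of Kif20b and Kif18b lay below the low end, so their folds are open to background. Foxm1, the transcription factor that switches on G2/M genes, fell by log2 -1.61 ± 0.22 (adjusted p = 0.000155). It was at 6.32, 6.34 and 6.72 on day 7 and 4.71, 5.02 and 4.81 on day 21. Mybl2, the other activator of these promoters, was at 5.73, 5.31 and 5.46 and then 5.07, 5.12 and 5.38 (-0.31 ± 0.16, adjusted p = 0.184).

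Subgroups of that list, singled out after their values were seen, differed in count. From day 7 to day 21, where 24.4% of all genes were called lower, 7 of 8 further kinesins fell (median -1.57). Of 8 core subunits of the anaphase-promoting complex 6 fell (median -1.10). Of 4 further condensin subunits 2 fell (median -0.82). Of the 5 cohesin subunits, which hold sister chromatids together and also shape chromatin in resting cells, only Stag2 fell (median -0.19). The cohesin count is near the share over all genes, and no test compared the subgroups.

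DNA replication and G1/S genes, which act earlier in the cycle, were measured for 49 of 55 listed. From day 7 to day 21, 37 fell, 1 rose (Mcm10) and 11 did not pass, where 24.4% of all genes were called lower. The median log2 change was -1.14, with the largest falls in Tyms (-2.27), Rfc3 (-2.15), Tk1 (-2.11) and Pola2 (-1.95). The day 21 mean of Tyms lay below the low end, so its fold is open to background. From day 2 to day 7, 5 rose and 44 did not pass (median 0.30), where 7.02% of all genes were called higher. Pcna, the replication clamp, lay between log2 11.13 and 11.43 on all 9 arrays.

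Of 22 measured cell cycle repressors and subunits of the DREAM and MuvB complexes, 6 rose and 6 fell from day 7 to day 21, where 13.7% of all genes were called higher and 24.4% lower, so the share that fell is near the background. The growth arrest genes Gadd45a (1.43 ± 0.20) and Cdkn1a, which encodes the CDK inhibitor p21 (1.08 ± 0.16, adjusted p = 0.000227), rose. Cdkn1a was at log2 8.82, 9.09 and 8.75 on day 7 and 10.13, 10.01 and 9.79 on day 21. Cdkn1c (p57) fell by -1.69 ± 0.15, and Cdkn2c (p18) rose to day 7 (1.01 ± 0.15) and fell again by day 21 (-1.18 ± 0.15). The DREAM and MuvB subunits did not move together. Among the MuvB subunits Lin9 fell (-1.13 ± 0.17), Lin37 rose (0.92 ± 0.25, adjusted p = 0.014), and Lin52 (0.32) and Lin54 (-0.19) were not called. Of the DREAM E2F factors, E2f4 rose (0.78 ± 0.18, adjusted p = 0.00518) and E2f5 was not called (0.15). The pocket protein Rbl1 (p107) fell (-0.68 ± 0.15). The pocket protein Rbl2 (p130) of DREAM rose to day 7 (0.84 ± 0.16, adjusted p = 0.00882) and fell after it (-0.82 ± 0.16).

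**Figure D5:**
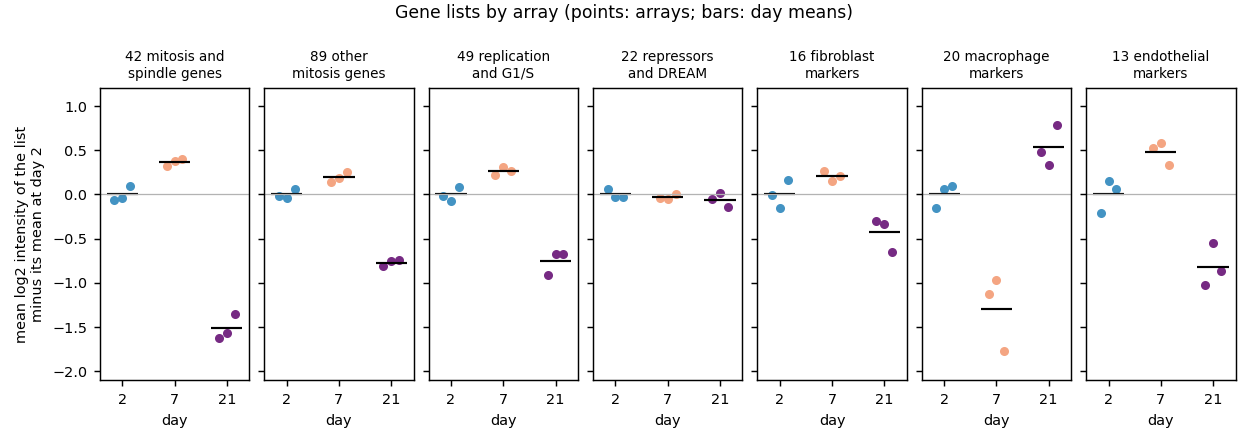
Mean log2 intensity of each gene list on each array (points, bar at the day mean), minus the list's mean on day 2, for the 42 mitosis and spindle genes, 3 other cell cycle lists and markers of 3 cell types. The mitosis and spindle genes drop most on day 21, the repressors stay level, macrophage markers dip on day 7 and peak on day 21, and endothelial markers peak on day 7.

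Markers of cell types moved in the same comparisons. Of 16 fibroblast markers, all measured, 7 fell from day 7 to day 21 (24.4% of all genes were called lower), 1 rose (Dcn) and 8 did not pass, with Tcf21 (-2.44) and Mfap4 (-2.39) falling most. Collagen genes Col1a1 and Col3a1 gave 0.41 and 0.11, not called. The list's summed intensity was 45263 to 57195 on day 2, 51214 to 57464 on day 7 and 37006 to 47793 on day 21.

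Of 20 measured macrophage markers, 19 rose from day 7 to day 21 (13.7% of all genes were called higher). From day 2 to day 7, 13 had fallen (4.41% of all genes were called lower). Their summed intensity was 22623 to 25896 on day 2, 8354 to 13371 on day 7 and 28639 to 39003 on day 21. Of 13 measured endothelial markers, 11 fell from day 7 to day 21 (24.4% of all genes were called lower). From day 2 to day 7, 2 had risen (7.02% of all genes were called higher). The endothelial summed intensities were 1079 to 1414, 1566 to 1924 and 652 to 870 on days 2, 7 and 21. Emcn fell by -2.70 ± 0.21 and Pecam1 by -0.58 ± 0.18, and Cdh5 was not measured.

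Lymphocyte markers summed to 973 to 1066, 293 to 403 and 1473 to 1791 on the 3 days. From day 2 to day 7 only Il7r of the 12 was called (-2.95 ± 0.20), and the list's median log2 change was -0.03. From day 7 to day 21, 5 of 12 rose (13.7% of all genes were called higher), Il7r most (3.63 ± 0.20). Alveolar type 2 markers summed to 1002 to 1664 over all arrays, with 5 of 14 rising and 3 falling from day 7 to day 21. Erythroid markers, 7 of 10 measured, gave 1 higher and 1 lower in that interval. Over all genes 13.7% were called higher and 24.4% lower there. The type 2 falls and both erythroid counts are near or below those shares. No marker of any list was at 0, but RMA intensities are always above 0, so this does not show that a marker was detected. The median log2 changes of the endothelial list (0.53 and -1.24) and the fibroblast list (0.16 and -0.14) had the sign of the mitotic genes' median in both intervals. Those of the macrophage (-1.20 and 1.87), lymphocyte (-0.03 and 0.46) and erythroid lists (-0.29 and 0.02) had the opposite sign in both. The alveolar type 2 medians were above 0 in both intervals (0.02 and 0.16). The part of cell type composition in the changes of the mitotic genes was not tested.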

How the data were processed

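RNA was measured on 9 single-colour Affymetrix arrays, 3 per day. Each intensity value in the deposited table comes from RMA (affy), per the submitters' processing notes, with versions not given in the sources used here. Its scale is linear, so log2 was taken. RMA shrinks differences of dim probe sets and is meant to remove differences in total signal between arrays. In the deposited values the array medians still differed, from log2 5.24 to 5.66.

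Of 31099 probe sets, 57 controls were left out and 31042 tested with limma 3.58.1 (R 4.3.3), with no filter on low values, a mean per day over all 9 arrays and two-sided moderated tests (6 residual, 5.69 prior degrees of freedom). P-values were Benjamini-Hochberg adjusted within a comparison, and a call is an adjusted p under 0.05. By the platform annotation 20826 probe sets had 1 symbol, 436 several and 9780 none. Per-array values are given for the 2 largest falls and the smallest change of each role from day 7 to day 21, for genes called from day 2 to day 7 and for those not called from day 7 to day 21. Ccnb1, Ccnb2, Mki67, Plk1 and genes of other lists beyond the 4 called genes with the largest change were added after their values were seen. The members and lists were chosen with earlier results of these data known. Motifs were searched in RefSeq promoters (GRCr8). The test was checked on simulated data. Precision is limited by 3 arrays per day. Alternatives were array centring, quantile normalization, a filter on dim probe sets, an added offset, other ways to represent a gene, a litter block, other variance settings and leaving out each array.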

Additional observations from a re-analysis of the deposited data

How the results depend on the processing

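The number of genes called from day 7 to day 21 was 39 and stayed between 38 and 40 under every alternative run, and 38 to 39 with an array left out. From day 2 to day 21 it was 37 and ranged from 34 to 39. From day 2 to day 7 it was 5. It was 3 with arrays centred on their medians, 10 with 16 added before log2, 11 with the mean of a gene's probe sets and 2 to 4 with an array left out, so that count rests on genes near the threshold. No gene's called direction reversed. The median log2 change from day 7 to day 21 (-1.97) was -1.55 with 16 added before log2, -1.78 with the mean of probe sets and -2.13 with the most variable probe set, and -2.03 to -1.87 with an array left out. From day 2 to day 21 (-1.69) it was -1.22 with 16 added and -1.53 with the mean of probe sets, and -1.77 to -1.58 with an array left out. For day 7 against day 2 (0.36) the range with an array left out was 0.32 to 0.41. Cdc20 was called lower from day 7 to day 21 in 3 alternatives: with 16 added (-0.36), the mean of its probe sets (-0.94) and its most variable probe set (-2.15).

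Centring arrays on their medians moved the median of all probe sets by 0.11 for day 21 against day 7. The share of all calls that were higher there was 36.6% as deposited, 48.0% when centred and 48.5% after a further quantile normalization. For day 7 against day 2 it was 61.5%, 41.5% and 53.5%, and for day 21 against day 2 it was 36.0%, 39.6% and 47.3%. The labels do not state whether a litter number means one litter followed over the days. Arrays with the same number had correlations of deviations from -0.24 to 0.41, and arrays with different numbers from -0.285 to 0.237. The best partner on another day had the same number in 8 of 18 cases. Between days 2 and 7 alone, the best partner of every array had its own number (0.405, 0.077 and 0.223 for numbers 1, 2 and 3). The main fit did not pair the samples, since the labels state no pairing, and whether days 2 and 7 share litters was not tested. With the replicate block by litter number, 7, 39 and 37 genes were called in the 3 comparisons, against 5, 39 and 37 without it. For day 7 against day 2 the block added Cdk1 (limma adjusted p = 0.0451), Cdca3 (0.0296) and Nuf2 (0.0467) and lost Nusap1 (0.0775). Folds of dim genes are open to background, and Cenpa lay near the low end on all days.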
